A study of Homo sapiens with 22 samples.

Results

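The nuclear genes for the proteins of the mitochondrial ribosome were followed across peak lists from TC-32 cells. Members were all protein-coding genes of GENCODE release 44 whose symbol starts with MRPL or MRPS followed by a digit, which gave 78 of 20033 protein-coding genes. Of these, 51 code for proteins of the large subunit and 26 for proteins of the small subunit. The remaining gene, MRPS36, codes for a protein now placed in the 2-oxoglutarate dehydrogenase complex.

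The cells were of the Ewing sarcoma line TC-32, an established line. Both arms were reverse transfected with 20 nM siRNA, either a negative control (siNEG) or one that targets FLI1 (siFLI1) and was meant to deplete the fusion transcription factor EWSR1::FLI1. Chromatin immunoprecipitation with sequencing gave 2 libraries per arm for the transcription factor ETS1, for H3K4me3, a histone methylation of promoters, and for H3K27ac, a histone acetylation of active promoters and enhancers. One further H3K27ac library per arm carried another antibody label, ab4729, and was kept apart. All groups came from 1 cell line, the labels do not say whether replicates were separate transfections, and how far the fusion was depleted was not analysed here. P-values therefore measure only the spread between these libraries, which may be technical.

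The mitochondrial ribosome translates the few messenger RNAs made from mitochondrial DNA, which code for core subunits of the respiratory chain and ATP synthase. Its RNA comes from mitochondrial DNA, whereas all of its proteins are made in the cytosol from nuclear genes and imported. Promoters of such genes are known for binding sites of ETS family factors such as GABPA, of NRF1 and of YY1. ETS1 and FLI1 belong to the same ETS family and recognise a GGAA core.

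The lists held 302 and 208 ETS1 peaks in siNEG and 1633 and 2635 in siFLI1. They held 60027 to 65501 H3K27ac peaks, 18344 to 19720 H3K4me3 peaks, and 32738 (siNEG) and 51663 (siFLI1) ab4729 peaks. The depth of the libraries was not used here. Between the ETS1 lists of siFLI1, summit heights differed by less than sampling noise (chi-square per degree of freedom 0.420 over 496 regions, lower-tail chi-square p = 5.3e-33). Only regions with 1 peak in each list and a summed height of 50 to 500 were compared, with summit heights treated as counts. How far these choices lower the value was not tested. Peak names in both of the siFLI1 ETS1 lists, that of replicate 1 included, carried the number 2. These lists were therefore counted as 1 sample, and ETS1 differences between arms have no replicate check on the siFLI1 side. Heights of the siNEG ETS1 lists could not be recovered, and those lists were kept as 2 replicates without such a comparison. The identity of the cells was checked at promoters: 6 of 6 Ewing sarcoma markers and 0 of 6 markers of other lineages had H3K4me3 in all 4 lists. For H3K27ac the counts were 5 of 6 and 1 of 6, with PAX7 in none of the lists and EPCAM in all 4. In part of the lists were EPCAM, in 1 for H3K4me3, and PECAM1, in 3 for H3K27ac.

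ETS motifs were searched for because ETS1 was one of the proteins precipitated. The motif CCGGAAG, on either strand from 250 bp before to 50 bp after the TSS (transcription start site) of the canonical transcript, stood in 32 of 78 member promoters. Printed here are the sites of members with an ETS1 peak in both siFLI1 lists, followed by a site each from members that have at least 2 matches and no ETS1 peak in any list. Sequences are from hg38, each 5′ to 3′ on the strand that reads CCGGAAG, with the motif in capitals and 11 bases to each side.
MRPL20, chr1:1407320-1407348, minus strand: cgaccttcgccCCGGAAGtatcgcagggg
MRPL20, chr1:1407297-1407325, minus strand: caggggctgacCCGGAAGcgctcgtgacc
MRPL51, chr12:6493364-6493392, plus strand: cggtccgcctgCCGGAAGttttggagcgc
MRPL51, chr12:6493349-6493377, minus strand: cggcaggcggaCCGGAAGcactgaggcgg
MRPS34, chr16:1773188-1773216, plus strand: ttcggtcgcggCCGGAAGcgaggaagagg
MRPS34, chr16:1773146-1773174, plus strand: gccggaagtcaCCGGAAGaggccggtgtc
MRPS34, chr16:1773136-1773164, plus strand: cagcggtccggCCGGAAGtcaccggaaga
MRPS21, chr1:150293839-150293867, minus strand: ggttctcactaCCGGAAGcggaaattacg
MRPL53, chr2:74472663-74472691, plus strand: tgacctccgccCCGGAAGaactcgtgcag
MRPS22, chr3:139343988-139344016, minus strand: agccacttgcgCCGGAAGtggttgggagg
MRPL23, chr11:1947331-1947359, plus strand: cctcgcggaccCCGGAAGcgcgcgtggcc
MRPL27, chr17:50373175-50373203, minus strand: acttttcgagaCCGGAAGtgagtgatcga
MRPL58, chr17:75012651-75012679, plus strand: ggaagcgcccgCCGGAAGcagtcgcaaga

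The centres of these sites lie from -116 bp (MRPL51) to 13 bp (MRPL23) of the TSS, where negative values are upstream. The printed stretches of MRPL20 overlap each other, and so do those of MRPL51. In MRPS34 the printed stretches around the sites at -26 and -16 bp overlap.

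Few member promoters were listed for ETS1. A gene was taken as listed when any peak interval overlapped the 1 kb to either side of any of its TSSs. On this rule 1 and 2 members were listed in the siNEG ETS1 lists, and 6 and 10 in the siFLI1 lists. Both siNEG lists held 1 member (1.28%), against 0.709% of all protein-coding genes, and both siFLI1 lists held 6 members (7.69%), against 7.67% of all protein-coding genes. The members' share was thus close to that of all genes. Among the 12475 other genes with H3K4me3 in all 4 lists, 12.2% were in both siFLI1 ETS1 lists, and among 87 cytosolic ribosomal protein genes 7 (8.05%) were. No ETS1 list held any of the other 68 members.

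ETS1 listing of other genes went up with H3K4me3, for which members ranked high. When all genes with H3K4me3 in all 4 lists were put into 5 groups of about equal size by mean H3K4me3 percentile, the share of other genes in both siFLI1 ETS1 lists was 3.90%, 9.24%, 13.3%, 15.6% and 19.0% from the lowest to the highest group. Members in both siFLI1 ETS1 lists numbered 0 of 1, 1 of 9, 1 of 15, 2 of 27 and 2 of 25. With the other genes weighted to the members' spread over these groups, the share was 15.4%, or 11.8 genes of 77. This weighting is a description and carries no test.

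**Figure D1:**
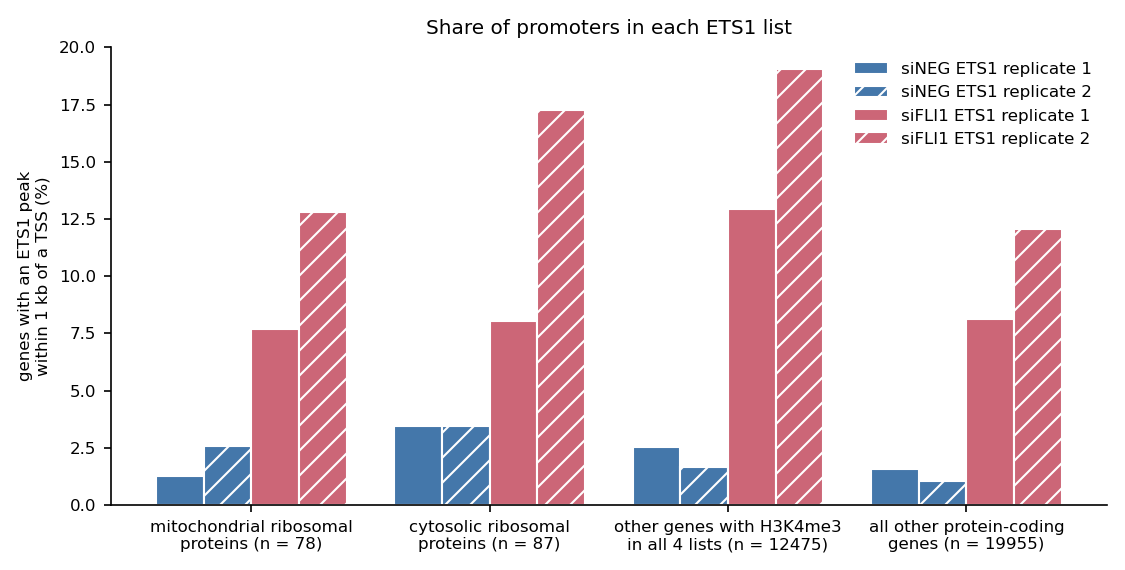
Bars give the percentage of genes with a listed ETS1 peak within 1 kb of a TSS, for 4 gene groups (x axis) and the 4 ETS1 lists (colour for arm, hatching for replicate 2). Members reached 7.69% and 12.8% in the siFLI1 lists, below the 13.0% and 19.1% of other genes with H3K4me3, and every group was higher in siFLI1 than in siNEG.

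MRPS28, which codes for a small subunit protein, was the 1 member present in all 4 ETS1 lists. Its peak stood at percentiles 6.95 and 82.7 of the siNEG lists and 89.5 and 86.6 of the siFLI1 lists, where a percentile is the rank of the authors' deposited fold among all peaks of that list. The siNEG lists placed the peak far apart. The siFLI1 summits lay 28 and 142 bp downstream of the canonical TSS on chromosome 8, and neither CCGGAAG nor CCGGAA stood within 50 bp of a summit in any list. ETS1 lists differ in length, so percentiles are read within a list and not as a change between arms.

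MRPS34 codes for a small subunit protein with no bacterial counterpart and was in 3 ETS1 lists, at percentile 18.8 in siNEG replicate 2 and at 86.1 and 96.1 in siFLI1. Its strongest peak, chr16:1771602-1771876 in siFLI1 replicate 2, has a summit 1389 bp downstream of the canonical TSS of MRPS34. The nearest canonical TSS is that of NME3, 202 bp away. Within 500 bp of a TSS of MRPS34 no list held a peak. The 3 ETS motifs printed for this gene are at its own canonical TSS, outside every listed interval.

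Gained genes were those in both siFLI1 and neither siNEG list. They numbered 4 members, MRPL20, MRPL14, MRPL13 and MRPL51, against 5.88% of all protein-coding genes. Lost genes, the opposite case, numbered 0 members (0.00998% of all genes). All 4 gained members code for large subunit proteins, and MRPL20, MRPL14 and MRPL13 have bacterial counterparts. The share in both siFLI1 lists was nearly the same for each subunit. It was 4 of 51 large subunit members (7.84%) and 2 of 26 small subunit members (7.69%). Those small subunit members, MRPS28 and MRPS34, were also in a siNEG list and so were not gained. Of large subunit members with bacterial counterparts, 3 of 30 were in both siFLI1 lists, and of those without, 1 of 21. Differences between these classes were not tested.

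MRPL20 had the peak chr1:1407112-1407466 at percentile 61.5 of siFLI1 replicate 1 and chr1:1407104-1407406 at percentile 7.36 of replicate 2. Its rank was therefore not stable between lists that count as 1 sample. The summits lay 9 and 54 bp upstream of the TSS, and a CCGGAAG was within 50 bp of the summit in both lists. No other member in both siFLI1 lists had the motif at its summit. Across other genes in both lists the motif was within 50 bp of the summit for 7.12% (replicate 1) and 6.73% (replicate 2) of 1531.

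MRPL14, whose protein lies at the face between the subunits, was low in both siFLI1 lists, at percentiles 22.3 and 21.6. Its summits lay 166 and 146 bp downstream of the TSS, and the TSS of TMEM63B is within 1 kb. MRPL13 stood at 46.5 and 69.6, with summits 23 and 62 bp upstream of its TSS, and MTBP starts within 1 kb on the other strand. MRPL51 stood at 44.9 and 82.2. Its summits were nearer to the canonical TSS of NCAPD2, a condensin subunit gene on the other strand, at 323 and 397 bp, than to its own canonical TSS, of which they stood at -517 and -443 bp. An alternative TSS of MRPL51 lay 61 and 13 bp from them.

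A further 4 members were in siFLI1 replicate 2 alone: MRPL33 at percentile 69.6, MRPL54 at 53.6, MRPL10 at 46.0 and MRPS24 at 30.0. MRPL54 had CCGGAAG within 50 bp of its summit, MRPL10 had the shorter CCGGAA, and MRPL33 and MRPS24 had neither.

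Counts of listed members moved with the list that was kept, and so did those of all genes. Without siFLI1 replicate 1, 10 members were listed in siFLI1 (12.1% of all protein-coding genes) and 8 were gained (10.2%). Without siNEG replicate 1, 2 were listed in siNEG (1.06%). With the 208 strongest peaks of each list, 0 members were in both lists of either arm, against 0.584% (siNEG) and 0.839% (siFLI1) of all protein-coding genes.

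ETS motifs were more frequent in member promoters than ETS1 peaks. CCGGAAG stood in 41.0% of member promoters, in 14.1% of all protein-coding promoters, in 20.1% of other promoters with H3K4me3, in 34.5% of cytosolic ribosomal protein promoters and in 46.9% of 64 other mitochondrial translation genes. The shorter CCGGAA stood in 60.3% of member promoters and 30.9% of other H3K4me3 promoters. By subunit, CCGGAAG stood in 41.2% of large subunit and 42.3% of small subunit promoters.

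Other motifs differed in their shares. AAGATGG, a core of the YY1 site, stood in 32.1% of member promoters against 6.41% of all and 7.69% of other H3K4me3 promoters, and in 17.2% of cytosolic ribosomal protein promoters. GCATGCG, from the palindromic NRF1 site, stood in 10.3% of members and 5.11% of all. GGGCGG, the core bound by SP factors, stood in 60.3% of members, 61.3% of all and 75.6% of other H3K4me3 promoters. CCAAT, bound by NF-Y, stood in 28.2% of members and 36.1% of all. All were searched on both strands in the same window. ETS and YY1 matches occurred together in 9 members (11.5%), including MRPL20 and MRPL51, and did not overlap in any of them. Both occurred in 1.26% of all protein-coding promoters, 1.88% of other H3K4me3 promoters and 6.25% of other mitochondrial translation genes.

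Most ETS matches in members lay close to the TSS. Of 44 ETS matches in 32 member promoters, 33 (75%) had their centre within 60 bp of the TSS, with a median of -21 bp, and 7 lay downstream. In other H3K4me3 promoters 60.5% of 3098 matches were within 60 bp, with a median of -42 bp. Of 27 YY1 matches in members, 18 (66.7%) lay downstream of the TSS, with a median of 12 bp, and 22 of the 27 were on the gene's strand. In other H3K4me3 promoters the YY1 median was 10 bp, 58.0% of 1016 matches lay downstream and 706 of the 1016 were on the gene's strand. Most matches thus lay downstream and on the gene's strand in both groups, and the difference in shares was not tested. Member promoters had a median GC content of 59.7%, below the 66.7% of other H3K4me3 promoters, so base composition differed between these groups and its part in the motif shares was not tested.

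ETS1 listing was compared between promoters with and without the motif. The windows differ: the motif was searched from 250 bp before to 50 bp after the canonical TSS. Listing took any peak within 1 kb of any TSS. Of 32 members with CCGGAAG, 3 (9.38%) were in both siFLI1 ETS1 lists, and of 46 without it, 3 (6.52%) were. Among all protein-coding genes the shares were 9.24% with and 7.41% without the motif, close to those of the members, and among other genes with H3K4me3 they were 10.2% and 12.7%. GGAA repeats, runs of at least 4 units of the kind bound by EWSR1::FLI1, were within 1 kb of the TSS in 0 of 78 members and 73 of 20033 protein-coding genes. Of the 3 members with CCGGAAG that were in both lists, only MRPL20 had it within 50 bp of a summit. A match is a description of the sequence and does not show a bound site.

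**Figure D2:**
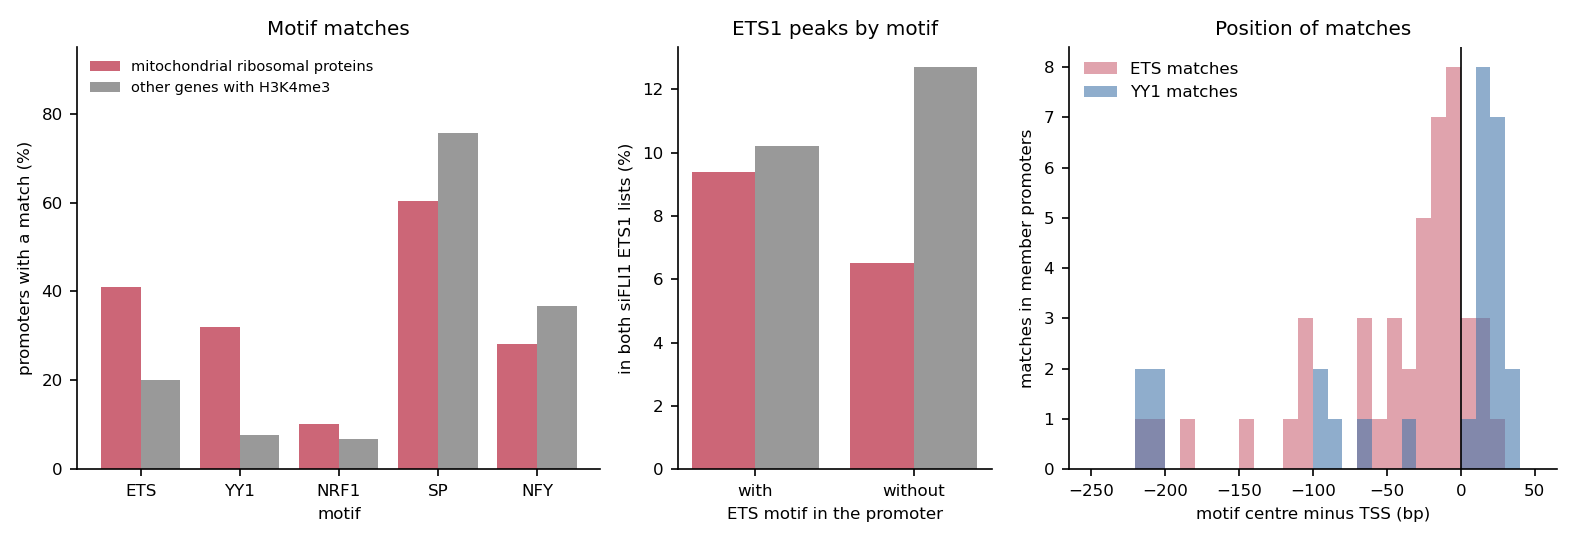
The left panel gives the percentage of promoters with a match to each of 5 motifs, the middle panel the percentage of genes in both siFLI1 ETS1 lists with and without an ETS motif, for members (red) and other genes with H3K4me3 (grey). The right panel counts motif centres in member promoters by distance from the TSS in 10-bp bins, where ETS matches (median -21 bp) gather just before the TSS and YY1 matches (median 12 bp) just after it.

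Neighbouring genes shared many of these promoters. A protein-coding neighbour had a TSS within 1 kb of 29 members (37.2%), against 20.0% of other genes with H3K4me3, and a divergent neighbour of any kind stood at 30 members (38.5%), against 27.1%. Of the 29 members with a protein-coding neighbour, 4 (13.8%) were in both siFLI1 ETS1 lists, and of the other 49 members, 2 (4.08%) were. Among other H3K4me3 genes these shares were 14.0% and 11.7%. A peak at such a promoter was counted for both genes.

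H3K4me3 marked nearly every member in both arms. Each of the 4 lists held the same number, 77 of 78 members (98.7%), against 63.2% of all protein-coding genes in both siNEG lists and 64.3% in both siFLI1 lists. Members gained numbered 0 (0.869% of all genes) and members lost 0 (0.2%). With any 1 library left out, members stayed at 0 for both, and 1.15% to 1.34% of all genes were gained and 0.344% to 0.379% lost. The median member peak stood at percentiles 84.5 and 83.2 in siNEG and 82.1 and 80.9 in siFLI1. Other genes with H3K4me3 in all 4 lists had medians of 72.4 and 73.5 in siNEG and 71.4 and 71.6 in siFLI1. Members above those medians numbered 63 and 59 of 77 in siNEG and 57 and 52 in siFLI1. Cytosolic ribosomal protein genes stood higher still, with medians of 96.5 and 97.1 in siNEG and 94.2 and 92.6 in siFLI1.

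The strongest H3K4me3 peak by mean percentile was that of MRPL20, at 96.9 and 96.2 in siNEG and 98.0 and 94.2 in siFLI1. MRPL14, MRPL17, MRPS23 and MRPL44 followed, with mean percentiles between 93.4 and 94.1. Their lists overlapped in rank: MRPL17 ran from 85.1 to 98.8 and MRPL44 from 85.7 to 97.8, so the order among these 5 is not separated by the spread of the lists. MRPL44 codes for a protein with a ribonuclease III fold.

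At the low end stood MRPL45, at 39.2 and 43.5 in siNEG and 34.2 and 33.3 in siFLI1, below every other member in all 4 lists. Its protein is known for tying the ribosome to the inner membrane. Next above it were MRPL48, MRPS28, MRPL57 and MRPS33, with mean percentiles from 56.4 to 62.8 and overlapping ranges.

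MRPL23, whose protein sits at the rim of the exit tunnel, was the 1 member without H3K4me3 in any list. It had no H3K27ac in the 4 replicated lists either, yet it stood at percentiles 96.6 (siNEG) and 97.7 (siFLI1) of the ab4729 lists. The nearest H3K4me3 peaks were 183 kb away. In the ab4729 lists the nearest peaks were 10 and 16 bp from a TSS. Among all protein-coding genes, 8 were in both ab4729 lists and in none of the 8 replicated histone lists. MRPL23 is at chr11:1947278-1984522, and why the lists differ there was not tested.

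H3K27ac was listed at 75 and 76 members in siNEG and 75 and 75 in siFLI1. Both siNEG lists held 75 members (96.2%), against 48% of all protein-coding genes, and both siFLI1 lists held 74 (94.9%), against 51.8%. In all 4 lists were 74 members, against 71.6% of other genes with H3K4me3. Members gained numbered 0 (1.91% of all genes) and members lost 0 (0.634%). With any 1 library left out, 2.66% to 4.76% of all genes were gained (highest without siNEG replicate 1) and 1.07% to 1.73% lost (highest without siNEG replicate 2). The median percentile of the listed members was 84.0 and 80.6 in siNEG and 86.2 and 85.3 in siFLI1. Other genes with H3K4me3 had 85.3 and 84.7 in siNEG and 87.5 and 86.5 in siFLI1, and cytosolic ribosomal protein genes 93.4, 92.1, 94.1 and 93.2 in the same order. The member median was thus above that of other H3K4me3 genes in all 4 H3K4me3 lists and below it in all 4 H3K27ac lists, described without a test. In the ab4729 lists it was 78.4 against 78.9 in siNEG and 88.4 against 84.5 in siFLI1. Each of these medians covers only the genes listed in that list. Fewer of the other genes were listed for H3K27ac (71.6% in all 4 lists), so more of them drop out. The H3K27ac medians therefore do not rank members below other H3K4me3 promoters as a whole.

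The members missing from an H3K27ac list were few. MRPL23 and MRPL45 were in 0 of 4 lists. The nearest H3K27ac peak to MRPL45 was 18.4 to 19.7 kb away, while the ab4729 lists held it at percentiles 79.7 (siNEG) and 62.3 (siFLI1). MRPL16, which codes for a protein near the peptidyl transferase centre, was listed in siNEG replicate 2 at 18.6 and in siFLI1 replicate 1 at 57.4, in no other replicated list, and in neither ab4729 list. MRPS31 was listed at 65.7 and 68.3 in siNEG and at 67.0 in siFLI1 replicate 2, and was missing from siFLI1 replicate 1. Without siFLI1 replicate 2 it counted as 1 lost member (1.11% of all genes).

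The highest H3K27ac percentiles belonged to MRPL49, at 98.9 and 98.5 in siNEG and 99.6 and 99.8 in siFLI1, to MRPS18B, at 98.4 to 99.9, and to MRPS7, at 97.8 to 99.5. MRPL51 and MRPS28 followed with means of 96.4 and 96.2. MRPL49 starts within 1 kb of FAU, MRPS18B of PPP1R10 and MRPS7 of GGA3. MRPS28 and MRPL48 were among the lowest 5 members for H3K4me3 and at 91.6 to 98.4 and 93.3 to 98.9 for H3K27ac.

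The lowest H3K27ac percentiles among members in all 4 lists belonged to MRPS24, MRPS26, MRPL35, MRPL10 and MRPL21, with means from 34.2 to 44.8. For 2 of them the replicates lay far apart: MRPS24 stood at 12.9 and 52.8 in siNEG and 69.2 and 2.00 in siFLI1, and MRPL35 at 68.2 and 9.23 in siNEG and 77.5 and 21.5 in siFLI1. MRPL21 stood at 59.2 and 60.9 in siNEG and 17.2 and 42.0 in siFLI1, and MRPS26 at 63.0 and 31.6 in siNEG and 16.6 and 29.1 in siFLI1, both lower in siFLI1 without overlap. The ab4729 lists went the other way, with MRPL21 at 5.43 in siNEG and 68.4 in siFLI1, and MRPS26 in siFLI1 alone, at 15.5. MRPL10 stood at 21.9 and 21.3 in siNEG and 57.3 and 76.8 in siFLI1, higher in siFLI1 without overlap, while its ab4729 peak was in siNEG alone. In the rank comparison of arms given later, the differences were -0.94 for MRPL21 (limma adjusted p = 0.29), -0.83 for MRPS26 (limma adjusted p = 0.34) and 0.92 for MRPL10 (limma adjusted p = 0.32), and none passed.

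**Figure D3:**
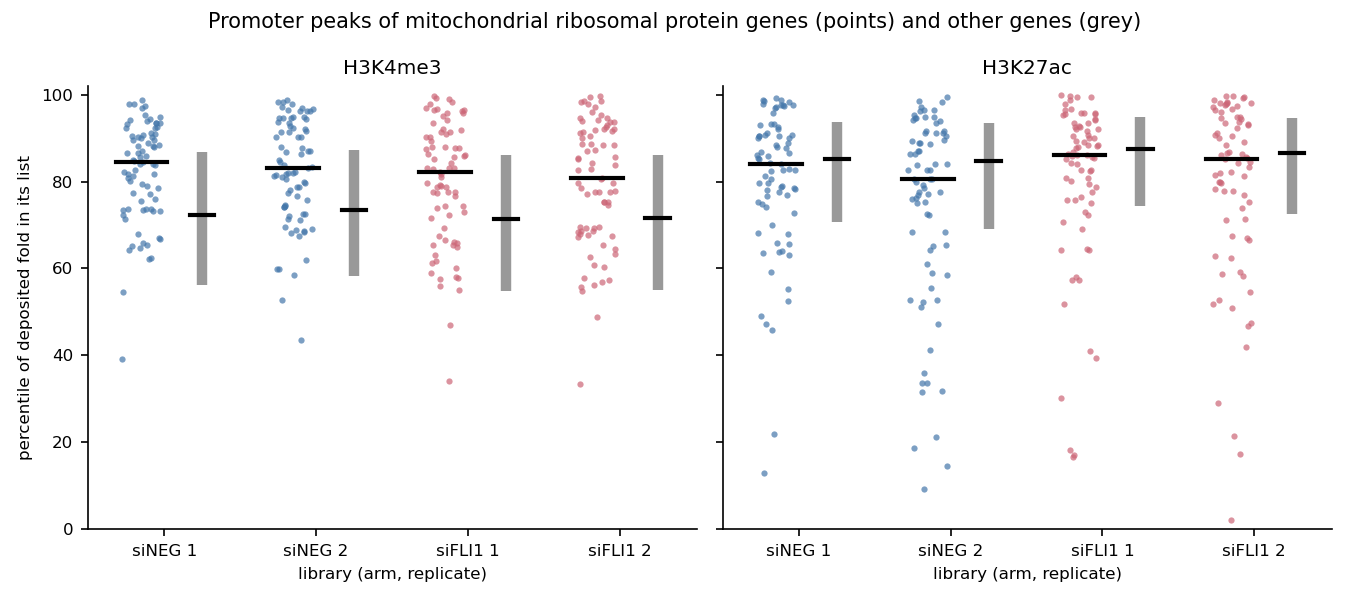
Each point is a member's highest peak by deposited fold within 1 kb of a TSS, as a percentile of its list (y axis), in the 4 H3K4me3 (left) and 4 H3K27ac lists (right), with a black bar at the median. Grey bars give the middle 50% of other genes with H3K4me3 in all 4 lists, with their median, over the genes listed in that library. Listed members lie higher for H3K4me3 (84.5 against 72.4 in siNEG replicate 1) and slightly lower for H3K27ac (84.0 against 85.3). Genes without a listed peak are left out, which for H3K27ac takes out a larger share of the other genes.

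**Figure D4:**
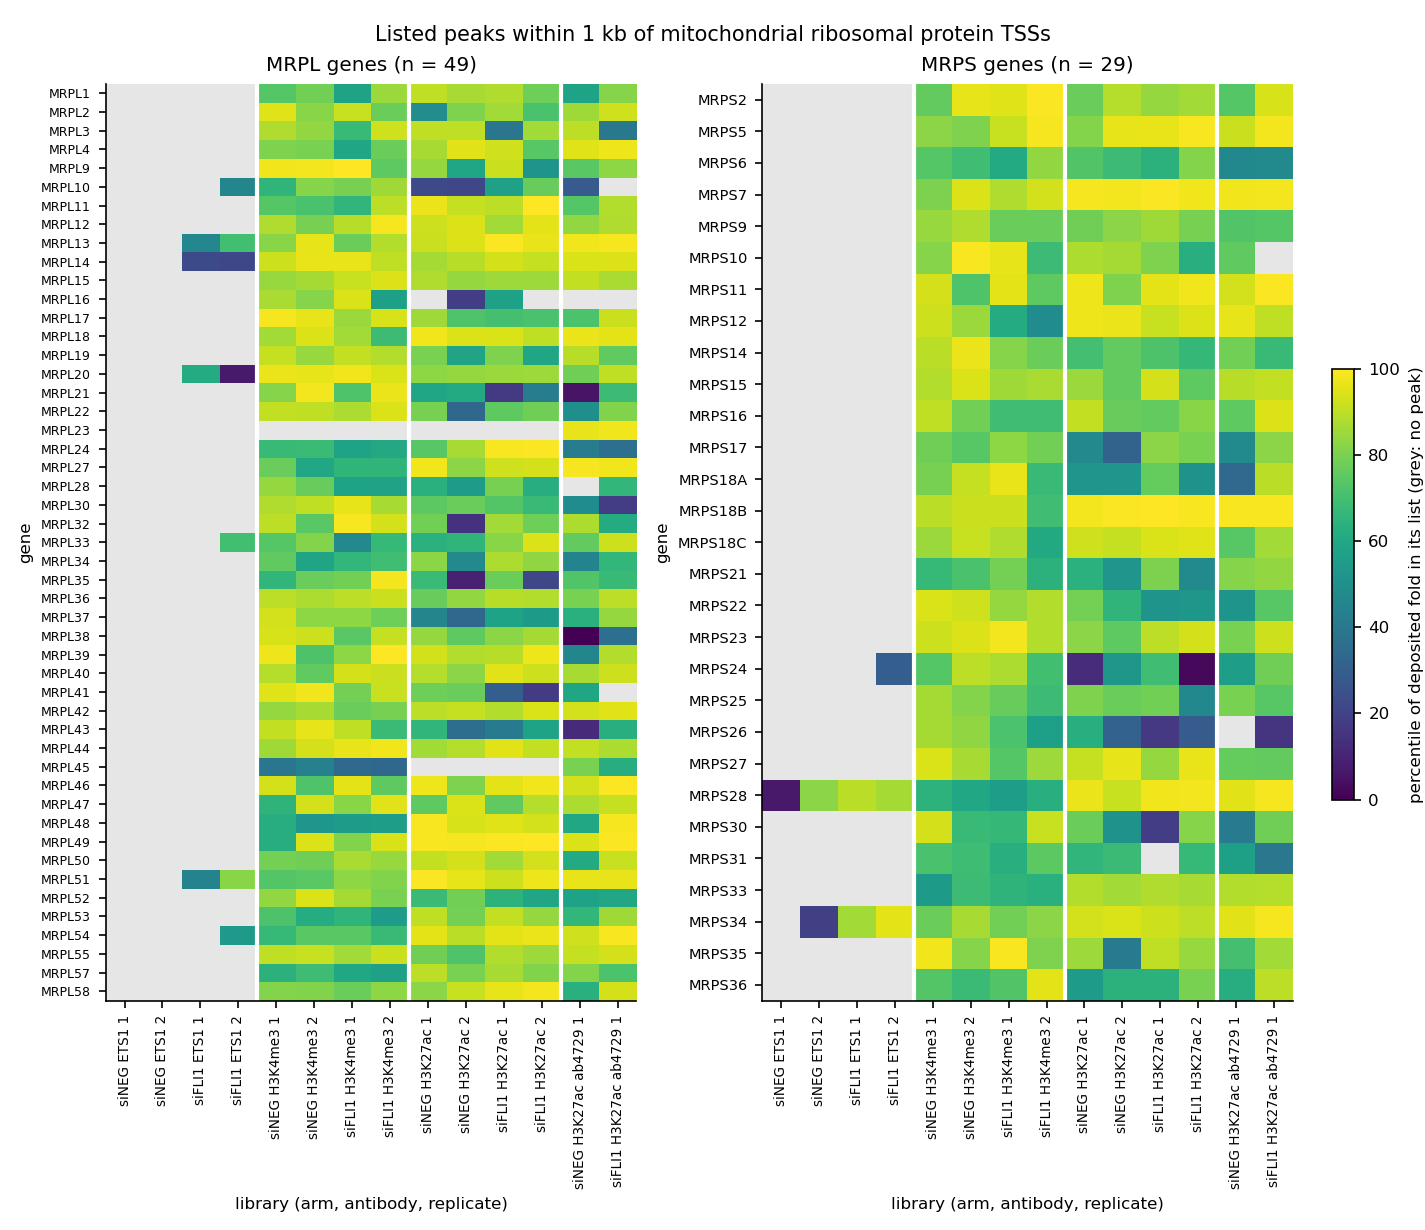
Rows are the 49 MRPL and 29 MRPS genes, columns the 14 lists, and colour the percentile of the gene's highest peak in that list, with grey where no peak was listed. ETS1 columns are grey for 68 genes, MRPL23 is grey in 12 columns, and MRPL45 and MRPL16 lack H3K27ac in 4 and 2 of the replicated lists.

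In the unreplicated ab4729 pair 75 members were listed in siNEG (44.5% of all genes) and 74 in siFLI1 (49.7%). In siFLI1 only were MRPL28 and MRPS26 (2 members, against 7.29% of all genes), and in siNEG only MRPS10, MRPL41 and MRPL10 (3 members, against 2.14%). This pair has no replicate check.

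To compare arms, each gene's highest deposited fold was ranked within a library among the genes listed in all 4 lists of a mark. The ranks were turned into normal scores, whose unit is 1 SD of a normal distribution, and tested with limma. For H3K4me3, 12552 genes were fitted and limma called 0 of them at an adjusted p of 0.05 (0% in either direction), members included. With 2 lists per arm this fit can miss shifts as large as that of MRPS12, given below, so 0 calls do not show that ranks were equal. Ranked by deposited −log10 p, 439 of the 12552 genes were called, and 1 of the 77 members, MRPL17. At an unadjusted p of 0.05, 5 of 77 members (6.49%) and 10.6% of all genes passed. Members' lists did not overlap between arms in 12 cases with siFLI1 higher (15.6%, against 22.8% of all genes) and in 20 cases with siFLI1 lower (26.0%, against 20.9%). The median difference of the members was -0.03 and that of all genes 0.02.

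MRPS12, whose protein lies at the decoding centre, had the lowest p for H3K4me3. Its rank percentiles were 85.4 and 70.5 in siNEG and 34.8 and 17 in siFLI1, lower in both siFLI1 lists, with a difference of -1.47 (SE 0.33, limma adjusted p = 0.37). MRPL28 stood at 70.0 and 55.3 in siNEG and 29.6 and 28.8 in siFLI1, a difference of -0.88 (SE 0.25, limma adjusted p = 0.41). Neither passed the test. Ranked by deposited −log10 p the differences were -0.74 for MRPS12 (limma adjusted p = 0.072) and -0.42 for MRPL28 (limma adjusted p = 0.18).

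For H3K27ac, 9274 genes were fitted and limma called 12 higher (0.129%) and 26 lower (0.28%) in siFLI1, of which 0 were among the 74 members. Without siNEG replicate 2 the calls over all genes numbered 2 in place of 38. Ranked by deposited −log10 p they numbered 400 of the 9274 genes. Of the 74 members 2 were then called, MRPL24 (limma adjusted p = 0.023) and MRPL41 (limma adjusted p = 0.021). At an unadjusted p of 0.05, 10 members (13.5%) and 15.4% of all genes passed. Members' lists did not overlap in 13 cases with siFLI1 higher (17.6%, against 24% of all genes) and in 18 cases with siFLI1 lower (24.3%, against 22.9%). The median difference was -0.03 in members and 0.02 in all genes.

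MRPL24 and MRPL41 came nearest to the threshold. MRPL41, which codes for a large subunit protein with no bacterial counterpart, had rank percentiles of 28.0 and 32.9 in siNEG and of 1.98 and 0.987 in siFLI1, with a difference of -1.68 (SE 0.37, limma adjusted p = 0.078). Its peaks had deposited folds of 7.43 and 6.16 in siNEG and 3.97 and 3.67 in siFLI1, and all summits lay 166 to 301 bp downstream of its TSS. The ab4729 lists held it at percentile 58.7 in siNEG and not in siFLI1.

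MRPL24 had rank percentiles of 22.1 and 53.5 in siNEG and of 92.9 and 97.0 in siFLI1, with a difference of 2.02 (SE 0.42, limma adjusted p = 0.071). Its siFLI1 values came from intervals of 12.1 and 11.4 kb whose summits lay at -5852 and -5872 bp of the TSS. The nearest TSS to these summits was that of HDGF, a growth factor gene, at 4735 and 4715 bp. The siNEG summits lay at MRPL24 itself, 256 bp downstream and 438 bp upstream. When only peaks with a summit within 1 kb were ranked, a choice made after seeing the data, the difference turned to -1.06 (limma adjusted p = 0.32). The ab4729 percentiles were 41.9 in siNEG and 36.4 in siFLI1.

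**Figure D5:**
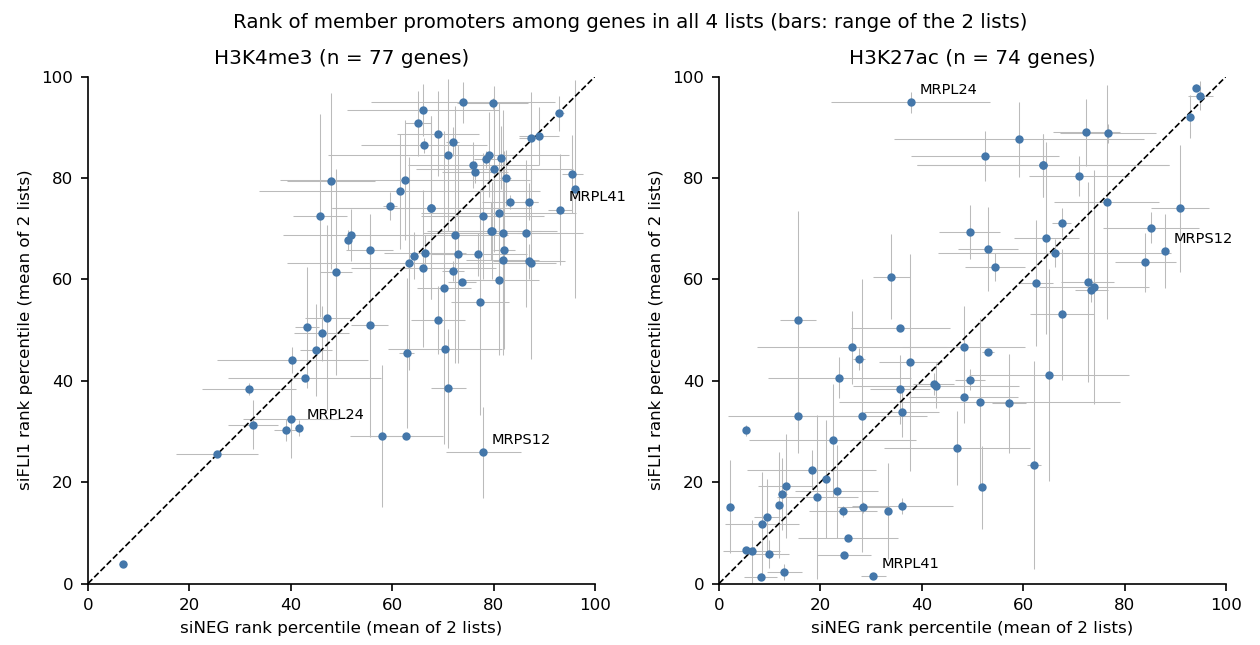
Each point is a member, with its mean rank percentile in siNEG (x axis) and siFLI1 (y axis) among genes in all 4 lists, for H3K4me3 (77 members) and H3K27ac (74 members), and bars give the range of the 2 lists of an arm. Points lie on both sides of the dashed line of equal rank, and the named genes are those described in the text. In the H3K27ac panel MRPL24 is farthest from the line (siFLI1 minus siNEG 57.1 points), and MRPL3 (-38.7), MRPL33 (36.4), MRPS10 (-33.0) and MRPL58 (31.8) lie farther from it than MRPL41 (-28.9).

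Other genes of mitochondrial translation were read in the same way. Of 64 such genes, comprising 19 mitochondrial tRNA synthetases, 25 ribosome assembly factors, 15 translation factors and 5 ribosomal proteins with other names, H3K4me3 was in all 4 lists for 64 and H3K27ac for 58. Among protein-coding genes that are not members, H3K4me3 was in all 4 lists for 62.5% and H3K27ac for 46.1%. Both siFLI1 ETS1 lists held 2 of the 64 (3.12%), against 7.67% of all protein-coding genes and 12.2% of other genes with H3K4me3. RBFA, an assembly factor of the small subunit, stood at percentiles 46.5 and 36.1. CARS2, the mitochondrial cysteinyl-tRNA synthetase, stood at 42.8 and 74.5, and at 31.7 in siNEG replicate 2. No list held ETS1 at any of the 5 ribosomal proteins with other names.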

How the data were processed

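The 14 immunoprecipitated libraries each had a deposited peak list, and peak names in each list carry the name of 1 library, not of a pool. No list of the 8 input libraries was analysed here. The submitters' processing notes name cutadapt 4.4, BWA 0.7.17, Picard 2.17.11, MACS2 2.1.1 and the builds GRCh38, hg38 and dm6, without their roles. Contig names and positions were those of hg38, and coordinates are counted from 1.

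The fold column, a ratio of signal to background for each peak, was made by the authors and was ranked only within a list. The −log10 p and −log10 q columns per peak were likewise deposited by the authors, and the lowest deposited −log10 q of a list was 2.01 to 2.55. The score column is an integer deposited by the authors and was not used. A list holds what passed a limit, so absence is not a measured 0, and a stronger immunoprecipitation lists more peaks.

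Contigs other than the autosomes, X and Y were left out. TSSs of all transcripts came from GENCODE 44. Motifs were searched in hg38 around canonical TSSs. Ranks were tested with limma 3.58.1 in R 4.3.3, with Benjamini-Hochberg adjustment over all genes fitted and no covariates, after a test on simulated data. In that test most H3K4me3 shifts of 1.5 SD were missed. Python 3.11.15 with pandas 2.3.3 and pysam 0.24.0 did the rest. Same-numbered replicates deviated with correlations of 0.0096 (H3K27ac) and 0.013 (H3K4me3), so the numbers were not used to pair samples. These values do not show whether same-numbered libraries were prepared together.

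Members and gene lists were chosen with earlier results of these data known. Genes were named by rule: members in a siNEG ETS1 list or in both siFLI1 lists, missing from a mark's list, gained or lost, among the 5 highest or lowest for a mark, or past the limma threshold, and listed mitochondrial translation genes in both siFLI1 ETS1 lists. MRPL33, MRPL54, MRPL10 and MRPS24 as ETS1 examples, MRPS12, MRPL28, MRPL24 and MRPL41 as rank examples, and the unlisted promoters whose sites are printed were chosen after their values were seen.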

Additional observations from a re-analysis of the deposited data

How the results depend on the processing

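Over 31 results, 238 alternatives were computed, of which 207 kept the result's direction and call (for counts, within 1.5 times), 27 moved it, 3 took it past the threshold and 1 turned its direction. Some of the 207 could not move, because leaving out a library of 1 arm cannot change a count from the other arm's lists. Others set a count of 0 beside 0, so the tally does not measure how stable the results are. Keeping the 208 strongest peaks of each ETS1 list gave 0 members in both siNEG lists, 0 in both siFLI1 lists and 0 gained, against 0.584%, 0.839% and 0.225% of all genes. Leaving out 1 library at a time gave 1 to 2 ETS1 members in siNEG (0.709% to 1.59% of all genes), 6 to 10 in siFLI1 (7.67% to 12.1%), 4 to 8 gained (6.19% to 10.2%), and 0 to 1 lost for H3K27ac (1.07% to 1.73%). It gave 2 to 57 H3K27ac rank calls over all genes, against 38, with the lowest count without siNEG replicate 2, and 0 among members. An arm left with 1 library was assumed to vary like the other.

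Ranking by deposited −log10 p called 439 of 12552 genes for H3K4me3, and 1 of 77 members (MRPL17). For H3K27ac it called 400 of 9274 genes, and 2 of 74 members, MRPL24 (1.89, limma adjusted p = 0.023) and MRPL41 (-1.55, limma adjusted p = 0.021). A 500-bp window gave 19 H3K27ac calls. Ranking only summits in the window, added after seeing the data, gave 2, and MRPL24 turned to -1.06. The fit with a replicate block called 1 of 74 members for H3K27ac, MRPL24 (limma adjusted p = 0.0496), and 56 of 9274 genes, and 0 for H3K4me3. The causes were not tested. The depth behind each list was not used here and limits what is listed.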
